A study of Rattus norvegicus with 28 samples.

Results

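Of 28 striatal RNA libraries, 5, all from wild-type rats, held at least 50 reads per 1000000 assigned reads (RPM) of Retsat, the gene of retinol saturase, and the other 23 held less. The 5 libraries are called high in Retsat here and the 23 low. The high libraries were chosen by their measured Retsat level alone, so levels of Retsat are given as a description, with no test. The comparison asked which other genes, near Retsat on chromosome 4 or elsewhere, differed between the high and the low libraries once the 4 design groups were taken into account. Retsat itself was not tested, and no other gene passed the test in either direction.

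The study sequenced striatum of male rats 12 weeks after a crush of the right sciatic nerve that lasted 30 s, or of naive rats without it. The groups were 6 libraries of TG rats with crush, 8 of naive TG rats, 6 of wt rats with crush and 8 of naive wt rats. TG rats carry human torsinA with the deletion of a glutamic acid that causes DYT-TOR1A dystonia, which the labels write as ΔETorA, and the wt controls lack this transgene. The sources used here do not give the promoter of the transgene, the rat strain or the age at tissue collection.

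Depth ran between 29151455 and 38407359 assigned reads per library. In the shallowest library, a gene with no read could still be present at up to 0.103 RPM, as far as counting error goes. The labels tell the libraries apart by number only, so a p-value here reflects the spread between these libraries, which may be partly technical. The human TOR1A row was at 102 to 144 RPM in the 14 TG libraries, against 0 to 0.972 RPM in the 14 wt libraries, and the highest wt value was in the naive wt library 202, which is high in Retsat. Summed markers of spiny projection neurons, the main neurons of the striatum, reached 11869 to 15877 RPM in the high libraries and 8066 to 15641 RPM in the low libraries. In bulk tissue, fewer cells of a type and less RNA per cell cannot be told apart.

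Retsat is an enzyme of the endoplasmic reticulum that saturates a double bond of all-trans-retinol, the alcohol form of vitamin A, and gives dihydroretinol. In mouse fat tissue it is a target of the lipid-sensing nuclear receptor PPARγ and takes part in adipocyte differentiation. Retinol is otherwise oxidised to retinal and then to retinoic acid, which acts through the nuclear receptors RAR and RXR. In the striatum, Rarb and Rxrg mark spiny projection neurons, and in mice lacking them dopamine receptor expression is lower.

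Retsat lies at chr4:100465365-100474128 on the plus strand of Rnor_6.0, and no other gene of the deposited table overlaps it. Elmod3 ends 212 bases before it on the minus strand, so the starts of both genes face away from each other across a short intergenic stretch. That stretch is shown because it lies between the start of Retsat and that of its nearest neighbour. In the RefSeq annotation of the later build GRCr8 it spans chr4:106211287-106211458, has 172 bases with a GC content of 53.5%, and reads on the plus strand, with a match to a GC box in capitals:
Retsat-Elmod3 intergenic sequence: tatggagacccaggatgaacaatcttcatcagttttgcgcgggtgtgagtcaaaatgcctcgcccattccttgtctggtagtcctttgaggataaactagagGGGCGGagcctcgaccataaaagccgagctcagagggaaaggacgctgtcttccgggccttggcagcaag

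Motifs were searched on both strands in the RefSeq promoter window of Retsat, which runs from 250 bases before to 50 bases after its start. Of these bases, 271 also lie in the first of 2 windows listed for Elmod3. The GC box GGGCGG matched once, and 33.1% of 33469 rat promoter windows of the same length hold it. AGGTCA, a core motif of nuclear receptor sites, matched once in the 300 bases but lay outside the printed stretch, and 16.2% of windows hold it. CCAAT and TATAAA had no match in the window and occur in 37.5% and 14.2% of windows. These matches describe letters only.

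Retsat was measured at 71.0 RPM in the naive wt library 202, and at 70.4, 66.3, 65.6 and 64.8 RPM in the wt crush libraries 203, 209, 210 and 205. In the 23 low libraries the lowest, median and highest levels were 28.9, 35.9 and 43.6 RPM. The levels therefore fell into 2 ranges with 21.2 RPM between them, by a rule that forces the ranges apart at 50 RPM but not the width of the gap. In the order of all 28 levels, the largest ratio between neighbours was 1.49, between wt crush 205 just above the threshold and the naive wt library 201 just below it, and the next largest was 1.09.

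High libraries averaged 67.6 ± 2.87 RPM (SD, n = 5) and low libraries 36.3 ± 3.46 RPM (SD, n = 23), a ratio of 1.86. The model with the 4 design groups put the difference at 0.94 on the log2(RPM + 0.5) scale, or 1.92-fold. It was 0.97 within wt crush libraries and 0.90 within naive wt libraries, where it rests on 1 high library. Each high library had 2173 to 2625 Retsat reads and each low library 992 to 1468. The lowest and highest levels differed 1.1-fold within the high libraries and 1.5-fold within the low libraries.

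**Figure D1:**
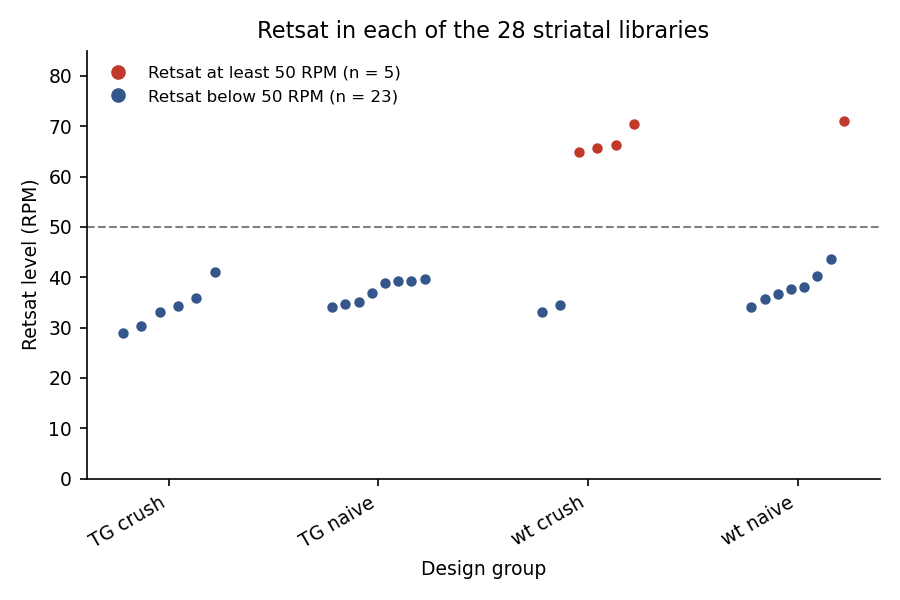
Retsat level of each of the 28 libraries in RPM, by design group, with the libraries of at least 50 RPM in red, those below in blue, and the threshold as a dashed line. The 5 red points lie at 64.8 to 71.0 RPM in the wt crush and wt naive groups, and every other point lies at or below 43.6 RPM.

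The high libraries were 0 of 6 TG crush, 0 of 8 TG naive, 4 of 6 wt crush and 1 of 8 wt naive libraries. Retsat averaged 33.9 ± 4.33 RPM (SD, n = 6) in TG crush, 37.2 ± 2.31 RPM (SD, n = 8) in TG naive, 55.8 ± 17.1 RPM (SD, n = 6) in wt crush and 42.1 ± 12.0 RPM (SD, n = 8) in wt naive libraries. The low wt libraries overlapped both TG groups: the 2 low wt crush libraries were at 33.2 and 34.5 RPM, and the 7 low naive wt libraries at 34.1 to 43.6 RPM. The wide SD of the wt crush group comes from 4 libraries at 64.8 to 70.4 RPM and 2 at 33.2 and 34.5 RPM, with none between.

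High libraries were thus 0 of 14 TG and 5 of 14 wt libraries, and 4 of 12 crush and 1 of 16 naive libraries. These counts describe the split and carry no test, since Retsat's own level made it.

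Across 18221 genes other than Retsat, limma called none at an adjusted p under 0.05 (0.00%), the smallest adjusted p being 0.175 for Zbtb2. At an unadjusted p under 0.05 there were 401 genes (2.20%), 90 of them higher and 311 lower in high libraries. A log2 difference over 0.5 in size was reached by 204 genes (1.12%), and the median over all genes was -0.03. The limma-voom fit on whole reads also called 0 genes, with 377 at an unadjusted p under 0.05. Since no TG library is high, the difference is measured within wt crush libraries (4 high, 2 low) and within naive wt libraries (1 high, 7 low), and the TG libraries contribute to the estimate of spread. Of the genes tested, 18084 (99.2%) had a 95% interval wholly below the 0.94 of Retsat, and 15442 (84.7%) had one within 0.5 of no difference.

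No gene around Retsat passed the test. Within 2 Mb on either side the deposited table lists 84 other genes, of which 36 reached the minimum level for testing. The other 48 stayed below it, with 23 at 0 in every library and the highest at 0.903 RPM in any library. Of the 36, limma called 0, against 0.00% of all genes, and 2 had an unadjusted p under 0.05 (5.56%, against 2.20% of all genes), Capg with a positive and LOC500198 with a negative difference. limma-voom called 0 of the 36 as well, with 2 at an unadjusted p under 0.05. Their log2 differences ran from -1.44 to 0.39 with a median of -0.04, beside -0.03 over all genes. Among the 36, 10 were positive and 26 negative, against 6044 positive and 12177 negative among all genes tested.

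For all 36 neighbours the 95% interval of the difference ended below the 0.94 of Retsat, against 99.2% of all genes tested. For 32 (88.9%, against 84.7% of all genes) it lay within 0.5 of no difference on the log2 scale, so the neighbours were near the shares of all genes. None of the 36 separated the 5 high from the 23 low libraries without overlap, and neither did any of the 18221 genes tested (0.00%). Against the 9 low wt libraries alone, 22 genes (0.121%) were separated from the high libraries, and 0 of the 36 were among them. This separation ignores the design groups: 4 of the 5 high libraries are crush, while 7 of the 9 low wt libraries are naive.

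**Figure D2:**
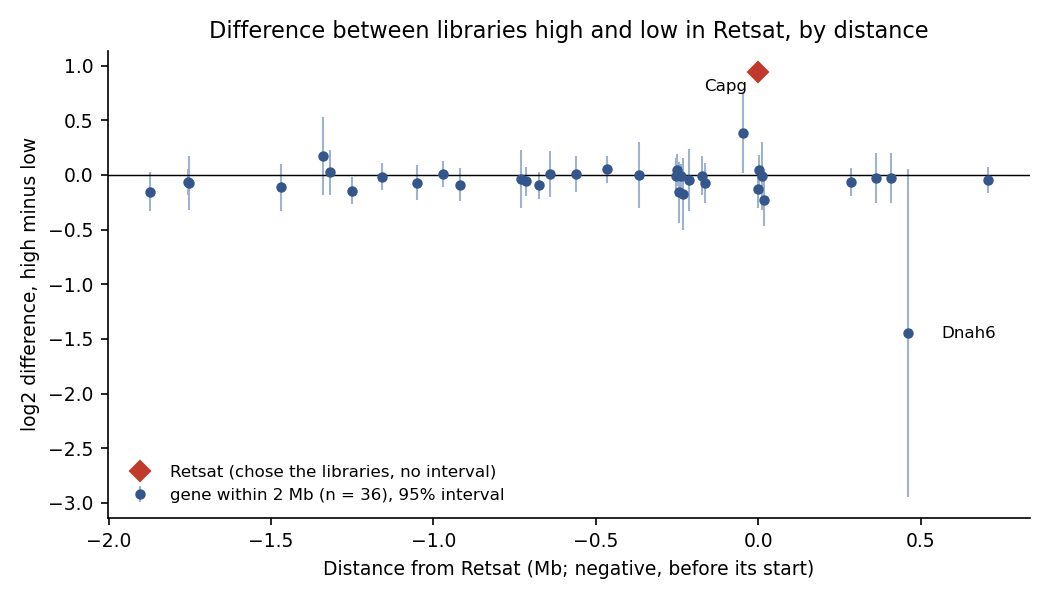
Difference between high and low libraries (log2, high minus low, with 95% intervals) of Retsat and the 36 tested genes within 2 Mb, by distance from Retsat. Retsat lies at 0.94 with neighbours on both sides at -1.44 to 0.39, and no neighbour's interval reaches 0.94.

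The nearest gene before Retsat is Elmod3, at chr4:100422256-100465152 on the minus strand, whose product activates the GTPase function of small Arl and Arf proteins. It was at 15.1, 15, 15.5, 15 and 15.6 RPM in the high libraries 202, 203, 209, 210 and 205, against 13.3, 16.7 and 19.5 RPM as the lowest, median and highest of the low libraries. The high libraries thus sat in a narrow range in the lower part of that of the low libraries. Of the 23 low libraries, 4 were at or below the highest high library and 22 were at or above the lowest. The log2 difference was -0.13 (SE 0.09, 95% interval -0.30 to 0.04, limma, adjusted p = 1.0).

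The nearest gene after Retsat is Tgoln2, at chr4:100475415-100483229 on the minus strand, which lies 1286 bases beyond its end and encodes a protein that cycles through the trans-Golgi network. It was at 142, 142, 151, 160 and 151 RPM in the high libraries in the same order, against 118, 141 and 156 RPM as the lowest, median and highest of the low libraries. Apart from the wt crush library 210, the high libraries lay within the range of the low ones. Its difference on the log2 scale was 0.04 (SE 0.07, 95% interval -0.09 to 0.18, limma, adjusted p = 1.0).

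Capg, at chr4:100395693-100419447, ends 45917 bases before Retsat and encodes a protein that caps actin filaments. It was at 5.99, 5.44, 4.61, 4.22 and 4.74 RPM in the high libraries in the same order, against 2.13, 4.05 and 5.31 RPM as the lowest, median and highest of the low libraries. Libraries 202 and 203 exceeded every low library, and 10 of the 23 low libraries were at or above the lowest high library. The log2 difference of 0.39 (SE 0.18, 95% interval 0.02 to 0.75) had an unadjusted p of 0.039 and an adjusted p of 1.0 by limma.

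Tcf7l1, a transcription factor of the Wnt pathway at chr4:100492796-100660401, was at 4.51, 4.75 and 5.39 RPM as the lowest, median and highest of the high libraries, against 4.68, 5.80 and 7.39 RPM in the low libraries. The ranges overlapped, and the log2 difference was -0.23 (SE 0.11, 95% interval -0.46 to 0.00, limma, adjusted p = 1.0). The lncRNA LOC102549526 overlaps Tcf7l1 on the other strand and differed by -0.01. No source used here states whether counting used the strand, so reads of this pair cannot be told apart.

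**Figure D3:**
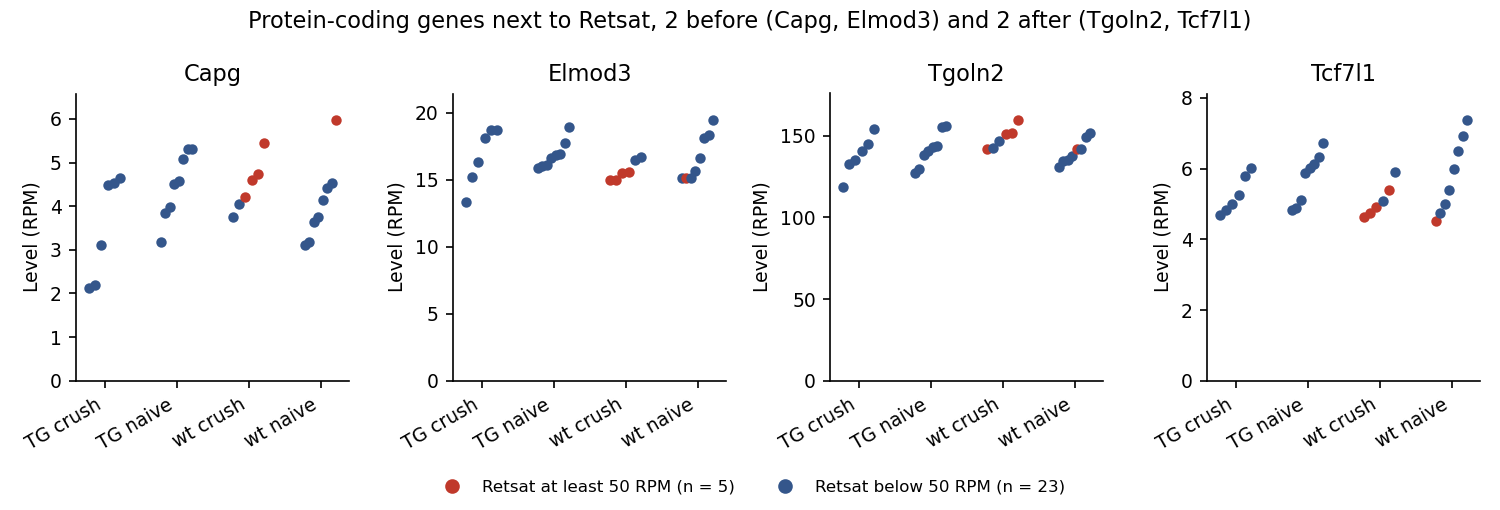
Levels (RPM) of the protein-coding genes on either side of Retsat in every library, by design group, with libraries high in Retsat in red and low ones in blue. Red and blue points overlap for Capg, Elmod3, Tgoln2 and Tcf7l1, in which the highest levels are 5.99, 19.5, 160 and 7.39 RPM.

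Further out on the side of Capg, the log2 difference was -0.08 (95% interval -0.26 to 0.11) for Mat2a, which makes the methyl donor S-adenosylmethionine. It was -0.01 (-0.18 to 0.17) for Ggcx, the vitamin K-dependent carboxylase, and -0.05 (-0.33 to 0.23) for Vamp8, a SNARE of vesicle fusion. On the other side it was -0.07 for Kcmf1, a ubiquitin ligase, and -0.03 for the pseudogene LOC100359493. Each had an adjusted p of 1.0 by limma, and none of these intervals reached 0.5 in size.

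The genes of lowest p within 2 Mb also included 3 that do not flank Retsat. LOC500198, annotated as a pseudogene of the tubulin Tuba1b, differed by -0.14 (limma, unadjusted p = 0.0273, adjusted p = 1.0), and reads of its parent gene could be counted at it. Rpia, an isomerase of the pentose phosphate pathway, differed by -0.15 (limma, unadjusted p = 0.0869, adjusted p = 1.0). Dnah6, a dynein heavy chain of motile cilia, was at 0.752, 0.322, 1.04, 0.264 and 0.571 RPM in the high libraries 202, 203, 209, 210 and 205, against 0.280, 0.837 and 12.8 RPM as the lowest, median and highest of the low libraries. Its log2 difference of -1.44 (SE 0.73, 95% interval -2.94 to 0.06, limma, adjusted p = 1.0) was the 1 difference over 0.5 in size among the 36 (2.78%, against 1.12% of all genes).

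Without wt crush 206, 1 of the 2 low libraries of its group, the difference of Dnah6 was -0.69. Of 9 tested markers of choroid plexus and ependyma, which bear motile cilia or line the ventricles, 0 were called and 5 (55.6%, against 1.12% of all genes) differed by over 0.5 in size on the log2 scale, with a median of -0.68. The summed level of the list was 12.3, 16.7 and 21.7 RPM as the lowest, median and highest of the high libraries, against 10.5, 34.4 and 165 RPM in the low libraries. Foxj1, the regulator of motile ciliogenesis, was at 2.17 to 3.17 RPM in high libraries and 2.68 to 16.6 RPM in low libraries (log2 difference -0.99, limma, unadjusted p = 0.0334, adjusted p = 1.0), and without wt crush 206 its difference was -0.53. The part of these cells in the difference of Dnah6 was not tested.

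Zbtb2, at chr1:40914175-40933586, had the lowest p of all genes and encodes a zinc finger protein that binds DNA. It was at 6.89, 8.39, 8.64, 8.64 and 9.10 RPM in the 5 high libraries in ascending order, against 7.78, 9.55 and 12.4 RPM as the lowest, median and highest of the low libraries. Within the wt crush group the 4 high libraries were at 8.39 to 9.10 RPM and the 2 low ones at 11 and 12.4 RPM, while 6 low libraries of other groups lay within the range of the high ones. The log2 difference was -0.42 (SE 0.08, limma, adjusted p = 0.175).

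Next in the order of p came a pair of aldo-keto reductases on the chromosome of Retsat, about 38 Mb away. Akr1b10, at chr4:61813265-61830371, encodes an enzyme whose human counterpart reduces retinal to retinol. It was at 10.7, 8.53, 8.49, 9.13 and 9.36 RPM in the high libraries 202, 203, 209, 210 and 205, against 8.18, 15.3 and 18.7 RPM as the lowest, median and highest of the low libraries. All 9 low wt libraries, at 13.6 to 18.5 RPM, exceeded all 5 high libraries, whereas the TG crush libraries 223 and 226 were at 8.18 and 9.58 RPM and are low in Retsat. The log2 difference was -0.63 (SE 0.14, limma, adjusted p = 0.408).

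LOC100910708, at chr4:62015923-62031795, is described in the deposited table as aldose reductase-related protein 1-like. It was at 7.49, 6.06, 5.46, 6.38 and 5.96 RPM in the high libraries in the same order, against 5.89, 10.5 and 13.4 RPM as the lowest, median and highest of the low libraries. The low wt libraries, at 9.54 to 13.4 RPM, again lay above all high libraries, and 2 low TG libraries lay among the high ones. For this gene the log2 difference was -0.65 (SE 0.14, limma, adjusted p = 0.408).

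Both genes belong to a family of close copies in a row on chromosome 4, and reads shared between copies make the value of each uncertain. Akr1b7 between them, named after its value was seen, was at 0.342 to 0.702 RPM in high libraries and 0.570 to 1.44 RPM in low libraries (log2 difference -0.52, limma, unadjusted p = 0.00269, adjusted p = 1.0). Akr1b8 differed by -0.21 and Akr1b1, the aldose reductase of glucose metabolism, by -0.13 (limma, adjusted p = 1.0 each), also named after their values were seen.

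Fam129c, now called Niban3, was on chromosome 16 and split the high libraries. It was at 6.49, 6.30 and 7.11 RPM in libraries 202, 203 and 210, above the 2.77 RPM of the highest low library, and at 1.5 and 0.885 RPM in libraries 209 and 205, within the low range of 0.744 to 2.77 RPM. High libraries differed from low ones by 1.45 on the log2 scale (SE 0.34, limma, adjusted p = 0.886). Without wt crush 205 it was 1.73 and passed the test (limma, adjusted p = 0.0228), and over all alternatives its adjusted p ran between 0.00305 and 1.0.

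Greb1, which estrogen induces in human breast cancer cells, was at 7.08, 7.27 and 5.56 RPM in the same 3 libraries and at 3.75 and 2.94 RPM in libraries 209 and 205, against 2.53, 3.60 and 4.54 RPM as the lowest, median and highest of the low libraries. The same 3 high libraries lay above every low library. On the log2 scale the difference was 0.71 (SE 0.17, limma, adjusted p = 0.991).

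**Figure D4:**
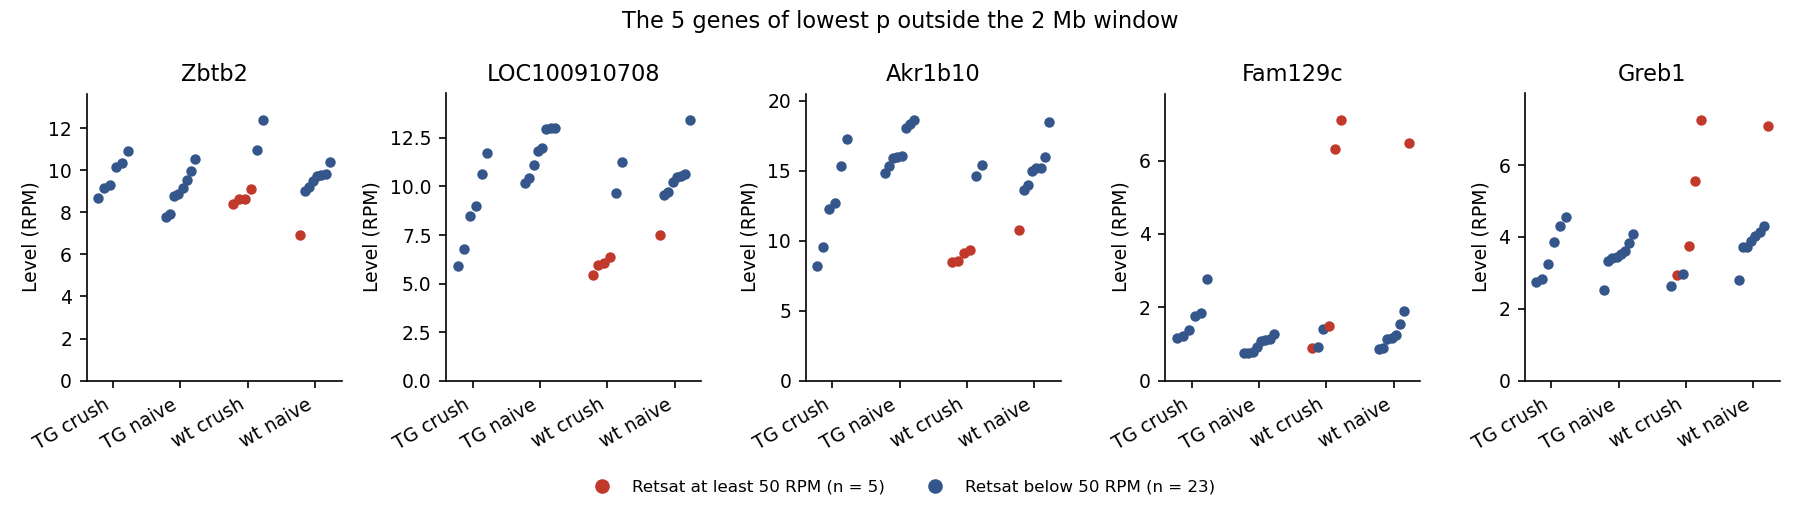
Levels (RPM) in every library of the 5 genes of lowest p, by design group, with libraries high in Retsat in red and low ones in blue. For Akr1b10 the red points lie at 8.49 to 10.7 RPM below every blue wt point, with 1 blue TG crush point (9.58 RPM) among them and 1 (8.18 RPM) below them, and for Fam129c 3 red points stand above 6 RPM and 2 lie with the blue ones.

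Over the 28 libraries, after the 4 group means were removed, the genes whose levels followed Retsat most closely were Zbtb2 (Pearson's r -0.79), Akr1b10 (-0.77) and LOC100910708 (-0.76), all in the opposite direction. The next were LOC102546418 (0.69), LOC100911661 (0.68), Greb1 (0.68), LOC688615 (-0.68), Cmtr2 (-0.67), Rrad (0.66) and LOC102557578 (-0.65). Cmtr2 methylates the cap of mRNA and Rrad is a small Ras-like GTP-binding protein. LOC102546418 and LOC688615 are annotated pseudogenes, and LOC102557578 is a lncRNA. LOC102546418, LOC100911661 and LOC688615 averaged 0.638, 0.562 and 0.896 RPM, near the minimum of 0.5 RPM for testing. These values of r describe likeness and carry no p, since libraries share groups and the genes were ranked on the same libraries. As Retsat levels fall into 2 ranges, the ranking largely repeats the comparison of high with low libraries and is no separate support for it. None of the 10 lies within 2 Mb of Retsat.

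No tested gene of the vitamin A pathway passed the test. Of 58 listed genes of vitamin A binding, storage, oxidation, clearance, receptors and targets, 56 were in the table and 41 were tested. Akr1b10, whose human counterpart reduces retinal to retinol, is on none of these lists (log2 difference -0.63, limma, adjusted p = 0.408). The counts below leave it out. limma called 0 of the 41, and 0 had an unadjusted p under 0.05, against 2.20% of all genes. limma-voom, which called no gene in the whole table, called 0 of them as well. Their log2 differences ran from -0.26 to 0.27 with a median of -0.03, beside -0.03 over all genes. Among the 41, 11 were positive and 30 negative, against 6044 positive and 12177 negative among all genes tested. For 38 of the 41 the 95% interval ended below 0.94 (92.7%, against 99.2% of all genes), and for 32 it lay within 0.5 of no difference (78%, against 84.7% of all genes).

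**Figure D5:**
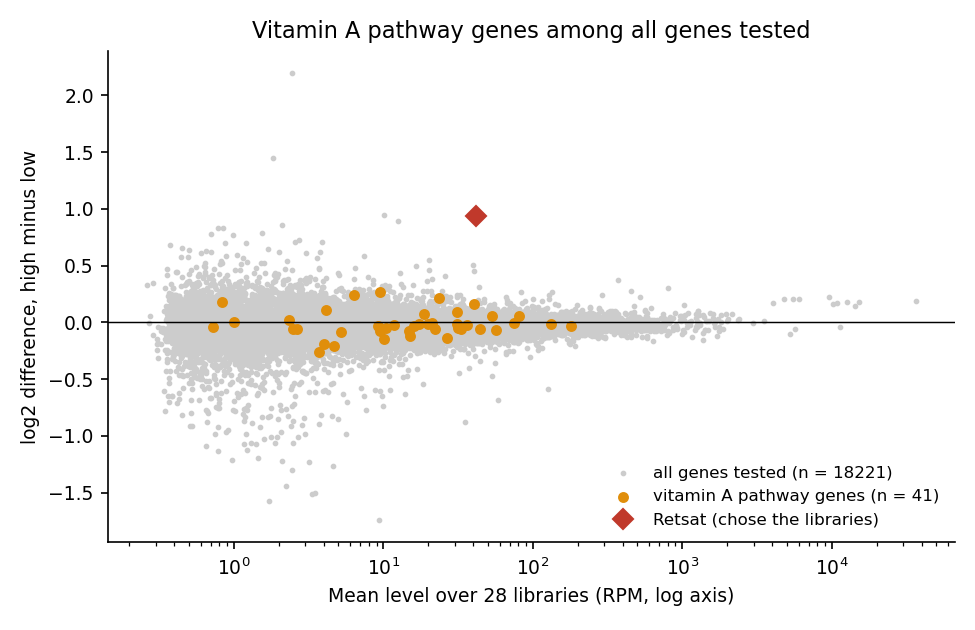
Difference between high and low libraries (log2, high minus low) against mean level over the 28 libraries (RPM, log axis) for the 18221 genes tested in grey, with the 41 tested vitamin A genes in orange and Retsat as a red diamond. Retsat stands at 0.94, while the orange points lie between -0.26 and 0.27 among the grey ones.

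Among 8 tested genes of vitamin A binding and transport, 0 were called. Rbp4, the retinol carrier of blood, was at 41.3, 47.2 and 51.0 RPM as the lowest, median and highest of the high libraries and 22.5, 42.8 and 52.7 RPM of the low libraries (log2 difference 0.16, limma, adjusted p = 1.0). The cell-surface retinol receptor Stra6 differed by -0.26 and the retinoic acid carrier Crabp1 by -0.02. Ttr, which carries Rbp4 and marks choroid plexus, was at 5.80 to 12.0 RPM in high libraries and 2.57 to 126 RPM in low libraries.

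Of 5 tested genes of storage and cleavage, 0 were called, and Lipe, a lipase of stored esters, had the lowest p with a difference of -0.06 (limma, adjusted p = 1.0). Of 14 tested oxidoreductases, 0 were called and the lowest p was that of Rdh16, a retinol dehydrogenase, at -0.19 (limma, adjusted p = 1.0). Rdh10, which oxidises retinol to retinal, differed by -0.08, and Dhrs3, which reduces retinal back, by -0.08. Aldh1a1, which makes retinoic acid from retinal, was at 19.7 to 36.7 RPM in high libraries and 18.4 to 48.1 RPM in low libraries, with a difference of 0.09.

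The 1 tested gene of retinoic acid clearance, Cyp26b1, was at 4.12 to 17.9 RPM in high libraries and 2.64 to 33.8 RPM in low libraries. Its difference of 0.27 had a wide 95% interval, -0.87 to 1.41, that includes a change as large as that of Retsat (limma, adjusted p = 1.0). Of 9 tested receptors and corepressors 0 were called, with Rxra at -0.12, Rarb at -0.07, Rara at -0.03 and Rxrg at -0.01. For 1 of the 9 the 95% interval reached the 0.94 of Retsat. Rxrg varied widely, at 44.6 to 123 RPM in high libraries and 18.7 to 123 RPM in low libraries. Of 9 tested retinoic acid targets 0 were called, and Rarres2, the gene of chemerin, had the lowest p at 0.22 (limma, adjusted p = 1.0).

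The 12 tested PPAR and lipid regulators had 0 calls and a median of -0.06. For 1 of them the unadjusted p was under 0.05 (8.33%, against 2.20% of all genes). Pdk4, which restrains pyruvate use when fat is burned, was at 1.91 to 4.77 RPM in high libraries and 3.48 to 10.7 RPM in low libraries (log2 difference -0.70, limma, unadjusted p = 0.0134, adjusted p = 1.0). The 15 tested oxidative stress genes had 0 calls, a median of -0.04 and 0 unadjusted p under 0.05 (0%, against 2.20% of all genes). Txnrd1, a thioredoxin reductase, differed by -0.11.

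Sequencing depth, the share of mitochondrial reads and the mean level of 10 lists of cell type markers were compared between high and low libraries by an exact permutation within design groups, whose smallest p is 0.00833. Of these 12 measures 0 were called, and 0 had an unadjusted p under 0.05. A single measure at that smallest p would have an adjusted p of 0.1 in this permutation test. No measure could thus be called alone, and the count of 0 does not show that the measures were alike. The lowest p was that of the meninges list, 0.25 higher on the log2 scale (exact permutation test, two-sided, p = 0.05, adjusted p = 0.367). It was followed by cortical excitatory neurons, 0.36 higher (exact permutation, p = 0.075, adjusted p = 0.367), and by choroid plexus and ependyma, -0.54 (exact permutation, p = 0.0917, adjusted p = 0.367).

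Assigned reads were 31907472 to 37291207 in high libraries and 29151455 to 38407359 in low libraries. Mitochondrial reads took 11.8% to 15.9% in high libraries and 10.4% to 18.5% in low libraries (exact permutation, p = 0.15, adjusted p = 0.45). The lists of spiny neurons (0.02), astrocytes (-0.03), oligodendrocytes (-0.07), microglia (0.06), endothelium and pericytes (0.06), blood cells (0.40) and pituitary (-0.55) had exact p-values of 0.325 to 0.925. Plain means of high and low libraries went the other way for pituitary (1.11 and 0.87), microglia (5.23 and 5.37) and endothelium and pericytes (5.38 and 5.44). The pituitary gene Pomc was at 166 RPM in the low library wt crush 206, without which its log2 difference was -0.04. Slc17a7, the glutamate transporter that marks cortical neurons, was over 20 RPM in 1 of 5 high and 4 of 23 low libraries. The high one is library 202, at 55.2 RPM, and the 4 high wt crush libraries were at 2.52 to 3.42 RPM. Without these libraries, which leaves only the wt crush comparison, 206 genes had an unadjusted p under 0.05 and limma called 0. LOC500476, an annotated pseudogene of Hspa8 that is on in some libraries and off in others, was at 5 RPM or more in 4 of 5 high and 10 of 23 low libraries. It was at 16.4 to 26.3 RPM in the 4 high and at 13.4 and 14.1 RPM in the 2 low wt crush libraries, so all 6 were on. In library 202, the 1 high naive library, it was off at 0.564 RPM, and 2 of the 7 low naive wt libraries were on.

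Whether the difference between high and low libraries depended on genotype cannot be estimated, as no TG library is high. Dependence on treatment rests on 1 high naive wt library, 202. limma called 1 of 18221 genes, the human TOR1A row, with a difference of differences (crush minus naive) of -1.78 (SE 0.28, adjusted p = 0.0134). It was at 0 to 0.0610 RPM in the 4 high wt crush libraries and 0.0844 to 0.447 RPM in the 2 low ones, and at 0.972 RPM in library 202 and 0 to 0.297 RPM in the other 7 naive wt libraries. All these levels are far below the 102 to 144 RPM of TG libraries, through which the row met the minimum level for testing. The spread of the row was estimated over all groups, TG libraries included. Its p-value therefore does not measure the spread among wt libraries, and no conclusion is drawn from the call. The number called changed with the settings, most of all when no minimum level was set and rows near 0 RPM entered.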

How the data were processed

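The authors deposited 1 table of RPKM values with decimal commas for 28 libraries (no other sample column), recorded as another unit for that reason. Stranded mRNA libraries gave single-end reads (75 nt, over 2 runs), per the labels' protocols. STAR 2.6.1a, Rnor_6.0, featureCounts of Subread 1.6.3 and DESeq2 1.22.2 are named in the submitters' processing notes. In all 39538 deposited rows the gene length is the span, introns included. RPKM times length in kilobases sums to 1000000 per library and is called RPM. Within a tolerance of 0.02 reads, 100% of values were whole reads.

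Genes with at least 0.5 RPM in at least 6 libraries were tested on log2(RPM + 0.5) with limma 3.58.1 in R 4.3.3, with the 4 design groups and an indicator of Retsat at 50 RPM or more, and Benjamini-Hochberg adjustment over 18221 genes, Retsat left out. Fold changes on this scale understate changes of low genes. Measures were tested over all 120 arrangements within groups, in place of the random draws planned. A planned exact test of the high libraries against genotype and treatment was left out, as Retsat's level made the split. The script was tested on simulated data. No library was treated as a repeat of another. The most alike pair correlated at 0.996, which cannot tell repeats from separate rats.

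The text names Retsat, the 5 tested genes on each side, the 5 of lowest p within 2 Mb and elsewhere, the 10 most like it and the lowest p of each list. Members, lists and tests were chosen with earlier results of these data known, so none is independent support. Sequences are RefSeq's for GRCr8. Alternatives are given in the closing section. Some genes that these rules name are not reported here.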

Additional observations from a re-analysis of the deposited data

Results flagged for a closer look

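In 42 genes and 4 groups, 22 of 168 sets of values had 1 library standing apart from its group, where chance flags about 1 in 20 groups. That rate is no yardstick here, since many of the genes were named for a low p or for likeness to Retsat in the same libraries, and Retsat itself is counted. The naive wt library 202, the only naive library high in Retsat, stood apart in 7 of them. It was highest in its group for Retsat (71.0 RPM, next 43.6 RPM), Fam129c (6.49 RPM), Greb1 (7.08 RPM), LOC102546418 (1.07 RPM), and Slc22a6, a meningeal marker (4.76 RPM). It was lowest for Zbtb2 (6.89 RPM) and LOC102557578 (1.85 RPM).

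TG crush library 223, low in Retsat, stood highest in its group for 6 genes of several cell types: Dnah6 (3.01 RPM), the oligodendrocyte gene Cldn11 (472 RPM), the microglial gene Cx3cr1 (41.4 RPM), Foxj1 (7.38 RPM), Slc22a6 (2.73 RPM) and the pituitary gene Pomc (19.5 RPM). Wt crush library 206, also low in Retsat, stood highest for Dnah6 (8.16 RPM), Foxj1 (12.1 RPM) and Pomc (166 RPM). It is 1 of only 2 low libraries in the wt crush group, and without it the log2 differences between high and low libraries were -0.69 for Dnah6, -0.53 for Foxj1 and -0.04 for Pomc.

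The other 6 sets were single genes. LOC100359493 was lowest in TG naive 188 (0.686 RPM) and Pomc highest there (17.3 RPM). Gja1, an astrocyte gap junction gene, was highest in TG naive 190 (484 RPM), and Hbb, a haemoglobin gene, in TG naive 191 (56.5 RPM). Cldn11 was highest in wt naive 201 (468 RPM), and the pericyte gene Kcnj8 in wt crush 203 (8.98 RPM).

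The human TOR1A row was called by limma for a difference between high and low libraries that depended on treatment (-1.78 on the log2 scale, crush minus naive). The naive side of that test is library 202 alone, and levels in wt libraries were 0 to 0.972 RPM. The row met the minimum level for testing through the TG libraries, which also entered its estimate of spread. The call was lost with a pseudocount of 0.1 RPM, with limma-voom and without wt crush 207.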

How the results depend on the processing

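The count of 0 genes called was unchanged under 43 of 48 alternatives, and the count of 0 within 2 Mb under all 50. Array weights and the Retsat level as a continuous measure each called 3 genes: Akr1b10, LOC100910708 and Zbtb2. Wt libraries alone called 1, Akr1b10, at -0.63 (limma, adjusted p = 0.0321), whose adjusted p ran from 0.000849 to 1.0 over all alternatives. With Retsat kept in the adjustment, a setting chosen after seeing the data, 0 were called. Naive libraries alone called 8, on library 202 alone, which is assumed to vary like the others. Leaving out 1 library gave 0 to 1 calls (Fam129c, without wt crush 205) and 0 to 0 calls within 2 Mb. Genes at an unadjusted p under 0.05 then numbered 199 to 587, the fewest without wt naive 202. Of the 12 measures 0 to 0 were called, where no measure could be called alone.

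Genes whose difference depended on treatment numbered 0 with a pseudocount of 0.1 RPM, 158 with no filter, 3 on the RPKM scale and 0 with limma-voom, and 1 to 2 with 1 library left out. With no filter, 30863 genes were tested, every gene with any read in any library, so rows near 0 RPM entered. Without wt crush 207 the human TOR1A row was not called. Of the 10 genes most like Retsat, 4 were shared with the 10 by Spearman's rank. Of 1998 alternative values of 42 named genes, 60 changed sign without a call in either, in 16 genes, and 10 passed the threshold. Median-of-ratios scaling moved the median gene by 0.04.

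No paired analysis was possible because no replicate number is shared between groups. The genotype interaction and TG libraries alone were not run, as no TG library is high. With 5 high libraries, 1 of them naive, intervals are wide for genes of low level.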

Other observations

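Against the 9 low wt libraries alone, 22 of 18221 genes (0.121%) had no overlap with the 5 high libraries, 1 higher and 21 lower, and 0 of the 36 neighbours of Retsat were among them. The 22 genes were picked by this separation, so they are described with no test. The separation ignores the design groups: 4 of the 5 high libraries are crush, while 7 of the 9 low wt libraries are naive. It therefore mixes nerve crush with the Retsat level. On chromosome 4, which holds 1030 of the 18221 genes tested, lie 5 of the 22. These are Akr1b10 and LOC100910708, close copies that may share reads, with Gstk1, a glutathione transferase, Gemin7l1 and Tulp3. Whether the count on chromosome 4 departs from the share of genes tested there was not tested. The 1 gene higher was Nfyc, a subunit of the CCAAT-binding factor, at 57.1 to 63.6 RPM in high libraries and 52.0 to 57.0 RPM in low wt libraries, with TG libraries at 49.7 to 64.2 RPM. Bag3, a co-chaperone of selective autophagy, was at 17.6 to 19.3 RPM in high libraries and 19.3 to 32.6 RPM in low wt libraries, with TG libraries at 15.9 to 30.4 RPM. Bckdhb, a subunit of the complex that breaks down branched-chain amino acids, was at 24.3 to 25.5 RPM in high libraries and 26.8 to 32.2 RPM in low wt libraries, with TG libraries at 23.1 to 31.7 RPM. For each of these 3 genes, TG libraries reached into both ranges. With the design groups in the model, the log2 differences were 0.10 for Nfyc, -0.20 for Bag3 and -0.20 for Bckdhb.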
